A study of Mus musculus with 2 samples.

Results

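Antibody genes and the receptors that carry antibodies across epithelia were followed in parietal cells of the stomach, which secrete its acid. The 10 genes taken were the heavy chain variable segment Ighv1-9, the kappa light chain variable segment Igkv1-88, the heavy chain constant regions Igha, Ighm, Ighg2b and Ighg2c, the kappa constant region Igkc, the joining chain gene Jchain, and the receptor genes Pigr and Fcgrt. All 10 were found among the 38087 genes of the deposited tables. Ighv1-9 and Igkv1-88 were chosen by their excess in the library from mice on a high fat diet (HFD). Their difference between the libraries is therefore a description and supports nothing further. The other 8 were taken for what they encode, with earlier results of these data known.

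The cells came from stomachs of C57BL/6 mice and were sorted, from animals on a high fat diet (the library HFD-PC) or on the control diet (Control-PC), with 1 library per diet. The diets' composition and length, the age, sex and number of mice and the sorting markers cannot be given from the sources used here. With 1 library per diet there was no replicate check and no test, and every difference below is between those libraries. In such bulk RNA, fewer cells of a type and less RNA per cell cannot be told apart.

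Levels are in RPKM, reads per kilobase of gene per M reads of depth, which can be compared between genes. A gene at or below the floor of 1 RPKM is listed at 0 in the tables. Many low values fell on steps of 1 read, which gave a depth of 25.5 M reads for HFD-PC and 9.84 M for Control-PC. Intervals are 95% intervals from the estimated reads behind a value. They are approximate and reflect counting error, not how mice vary or which scaling is chosen. Above the floor lay 35.3% of all genes in HFD-PC and 39.5% in Control-PC. Of the 10 genes, 4 were listed in HFD-PC and 3 in Control-PC, and 5 were listed at 0 in both. The 2 variable segments were chosen by their excess in HFD-PC, so nothing is read from these counts beside those shares.

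An antibody heavy chain is encoded by a variable, a diversity and a joining segment that B cells join in their DNA, and the resulting transcript is spliced to a constant region that sets the class: Ighm for IgM, Igha for IgA, Ighg2b and Ighg2c for IgG. A kappa light chain is made in the same way from a variable and a joining segment and the constant region Igkc. In mucosae, plasma cells in the connective tissue below the epithelium secrete IgA whose units are linked by the joining chain. The polymeric immunoglobulin receptor, Pigr, takes this IgA up at the base of epithelial cells and releases it at the lumen, whereas the neonatal Fc receptor, whose heavy chain is Fcgrt, binds IgG in acidic endosomes and carries or recycles it.

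In HFD-PC the immunoglobulin RNA listed was 1 heavy chain variable segment, 1 kappa variable segment and the IgA constant region. Ighv1-9 (ENSMUSG00000094694, chr12:114583569-114584002, minus strand, mm10) stood at 40.2 RPKM there (interval 36.2 to 44.6, from 360 estimated reads) and was listed at 0 in Control-PC. That entry of 0 allowed up to 3.45 reads of the segment. Igkv1-88 (ENSMUSG00000076535, chr6:68862265-68863031, minus strand) stood at 24.6 RPKM in HFD-PC (21.5 to 28.0, from 227 reads). It was listed at 0 in Control-PC, where that entry allowed up to 3.56 reads. Both segments were thus listed in HFD-PC and below the floor in Control-PC. Among protein-coding genes and immunoglobulin variable and constant genes they held ranks 1 and 2 of the excess on the log2(RPKM + 1) scale, at 5.37 and 4.68. The next in that order, Chil4, a chitinase-like gene, had 3.85. These ranks restate how the 2 segments were chosen. Over genes of every type, 13 were listed in HFD-PC alone at or above the level of Ighv1-9, that segment included. For Igkv1-88 the count taken in the same way was 19.

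The segments are shown beside the segment of their own locus most like them, because reads of near-identical segments can be mixed and the sequences show how far each can be told apart. Each line gives 240 bases of the second exon, 5′ to 3′ in the sense of the transcript, from the GENCODE M21 transcripts on GRCm38, the assembly also called mm10. Capitals mark the bases that differ between the 2 segments of a pair. The first pair is bases 112 to 351 of Ighv1-9 and the aligned stretch of Ighv1-77, with 26 differing bases and no gap.
Ighv1-9: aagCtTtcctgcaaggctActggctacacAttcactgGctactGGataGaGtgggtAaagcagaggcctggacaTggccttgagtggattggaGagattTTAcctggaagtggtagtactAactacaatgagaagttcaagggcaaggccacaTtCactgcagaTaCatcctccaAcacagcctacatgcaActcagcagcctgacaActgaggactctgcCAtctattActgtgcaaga
Ighv1-77: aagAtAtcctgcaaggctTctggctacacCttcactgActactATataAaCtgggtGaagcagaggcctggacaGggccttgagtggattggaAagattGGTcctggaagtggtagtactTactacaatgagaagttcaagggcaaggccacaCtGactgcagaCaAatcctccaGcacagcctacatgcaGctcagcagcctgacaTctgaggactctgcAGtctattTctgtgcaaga

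The second pair is bases 123 to 362 of Igkv1-88 and the aligned stretch of Igkv1-110, with 37 differing bases and no gap.
Igkv1-88: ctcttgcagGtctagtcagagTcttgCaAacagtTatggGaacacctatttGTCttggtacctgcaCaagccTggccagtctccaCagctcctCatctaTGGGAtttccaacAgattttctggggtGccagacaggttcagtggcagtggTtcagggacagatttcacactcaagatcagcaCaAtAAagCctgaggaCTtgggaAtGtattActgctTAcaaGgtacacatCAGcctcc
Igkv1-110: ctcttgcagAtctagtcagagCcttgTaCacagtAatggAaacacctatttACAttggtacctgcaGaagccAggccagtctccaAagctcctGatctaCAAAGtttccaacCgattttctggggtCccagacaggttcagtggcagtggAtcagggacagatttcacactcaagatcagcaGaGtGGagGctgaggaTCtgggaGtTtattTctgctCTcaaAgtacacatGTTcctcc

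Over the whole annotated transcript of 351 bases, Ighv1-9 was 90.9% identical to Ighv1-77, its nearest of 172 other heavy chain variable segments and pseudogenes that aligned over at least 200 bases, 90.3% to Ighv1-63 and 90.0% to Ighv1-56. The median over the 172 was 76.1%. Igkv1-88, with a transcript of 362 bases, was 84.8% identical to Igkv1-110, the nearest of 119 other kappa segments and pseudogenes, 84.5% to Igkv1-122 and 84.0% to Igkv1-117, with a median of 63.6%. All 6 of these neighbours were among the genes of the tables and all were listed at 0 in both libraries. None of the 101 heavy chain and 72 kappa segments and pseudogenes compared that the tables hold was listed in either library.

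Shorter stretches also set the segments apart from other annotated transcripts. Of the 302 windows of 50 bases along Ighv1-9, 300 occurred in no transcript of another gene on either strand, and all 252 windows of 100 bases were its own. For Igkv1-88 all 313 windows of 50 bases and all 263 of 100 bases were its own. The windows cover the annotated germline letters; the sources used here do not give the read length, the mismatches allowed in alignment or the rule for reads that match several genes.

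**Figure D1:**
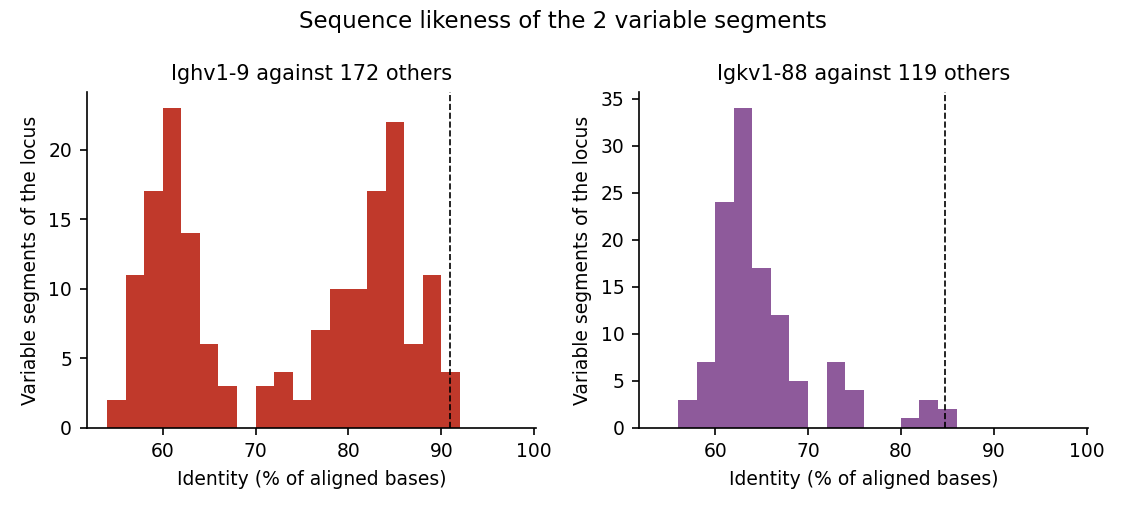
Number of variable segments and pseudogenes of the same locus (vertical axis) by their percent identity to Ighv1-9 (left, 172 others) and to Igkv1-88 (right, 119 others). The dashed line marks the nearest segment, at 90.9% for Ighv1-9 and 84.8% for Igkv1-88, the highest value in each panel.

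Igha (ENSMUSG00000095079, chr12:113254830-113260236, minus strand), the constant region of IgA, was listed in both libraries. It stood at 15.7 RPKM in HFD-PC (14.8 to 16.7, from 1069 reads) and at 1.28 RPKM in Control-PC (0.897 to 1.81, from 34 reads), just above the floor. HFD-PC was the high one, at 12.3 times the control (interval 8.63 to 17.6). This ratio was 8.09 with HFD-PC scaled by a total that omits the 20 most abundant genes. For that total, RPKM was summed in each library without the 20 genes most abundant in that same library. The ratio was 7.34 with 1 RPKM added to both values. Igha was the single immunoglobulin gene listed in Control-PC. In the order of excess given above for the variable segments, Igha held rank 15, at 2.88.

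Per length of gene, Ighv1-9 stood in HFD-PC at 2.56 times and Igkv1-88 at 1.57 times the level of Igha, with Ighv1-9 at 1.63 times Igkv1-88. The comparison with Igha depends on its gene model. All annotated exons of Igha sum to 2668 bases, while its annotated transcripts have 1100 and 2540 bases. Taken over the shorter transcript alone, an alternative added after the values were seen, the same reads would give 38.1 RPKM in HFD-PC and 3.10 RPKM in Control-PC; over the longer one they would give 16.5 and 1.34 RPKM. The order of Ighv1-9 over Igkv1-88 does not rest on the gene model of Igha. Both segments were chosen by their excess in HFD-PC, so nothing further is read from their order.

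The other constant regions among the 10 genes were listed at 0 in both libraries, as were Ighg1, Ighg3, Ighe and Iglc2. The members at 0 were Ighm of IgM (ENSMUSG00000076617, chr12:113418558-113422730), Ighg2b (ENSMUSG00000076613, chr12:113302965-113307933) and Ighg2c (ENSMUSG00000076612, chr12:113285325-113288932) of IgG, all on the minus strand, and Igkc (ENSMUSG00000076609, chr6:70726435-70726966, plus strand), the constant region of every kappa chain. An entry of 0 allowed up to 48.1 reads of Ighm, 68.3 of Ighg2b and 33.8 of Ighg2c in HFD-PC, and up to 18.6, 26.3 and 13.0 in Control-PC. The bound for Igkc was lower, at 13.6 and 5.23 reads, since its single exon has 532 bases. Igkv1-88, with 227 reads in HFD-PC, was thus listed without the constant region that a kappa transcript carries. The lincRNA gene Gm30211, on the same strand, overlaps Igkc and is not among the genes of the tables. Whether this bears on the entry of 0 was not tested. A listed 0 can also be a failed estimate, which was not tested either.

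The remaining immunoglobulin genes were at the floor too. The annotation holds 268 immunoglobulin genes besides pseudogenes, 243 of which were in the tables, and 240 of these 243 were listed at 0 in both libraries. HFD-PC listed 1 of 106 heavy chain variable segments, 1 of 98 kappa variable segments, 0 of 3 lambda variable segments and 1 of 9 constant regions. Control-PC listed 0 of these 207 variable segments and 1 of 9 constant regions. Diversity and joining segments, 18 and 9 in the tables with a median of 17 and 43 bases, were all listed at 0, as were 13 pseudogenes. For the variable segments an entry of 0 meant at most 7.09 to 12.8 reads in HFD-PC, depending on length, and at most 2.74 to 4.93 in Control-PC.

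Jchain (ENSMUSG00000067149, chr5:88519809-88527891, minus strand), which links the units of polymeric IgA and IgM and is made by the plasma cell itself, was listed at 0 in both libraries. Its 2517 exonic bases left room for up to 64.2 reads in HFD-PC and 24.8 in Control-PC below the floor. The surrogate light chain genes Igll1, Vpreb1, Vpreb2 and Vpreb3 of early B cells were listed at 0 in both libraries as well.

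**Figure D2:**
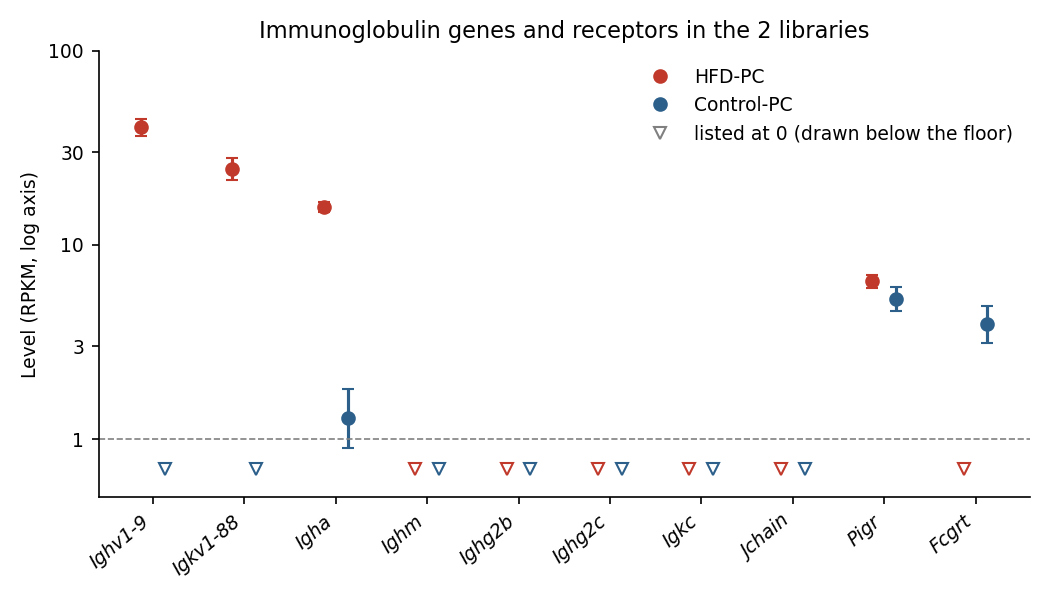
Level of each of the 10 genes in RPKM on a log axis, in HFD-PC (red) and Control-PC (blue); bars are 95% intervals from estimated reads, the dashed line is the floor of 1 RPKM, and open triangles are genes listed at 0. Ighv1-9 at 40.2 and Igkv1-88 at 24.6 RPKM are listed in HFD-PC alone, Igha is at 15.7 against 1.28 RPKM, Pigr is close in both, and Fcgrt is listed in Control-PC alone.

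The epithelial receptors gave another picture. Pigr (ENSMUSG00000026417, chr1:130826684-130852249, plus strand), the receptor for polymeric IgA and IgM, was listed in both libraries, at 6.51 RPKM in HFD-PC (6.03 to 7.02, from 668 reads) and 5.27 RPKM in Control-PC (4.59 to 6.04, from 209 reads). The levels were close and their intervals met. The ratio of HFD to control was 1.24 (1.05 to 1.45), but it was 0.813 with HFD-PC scaled by a total that omits the 20 most abundant genes, so no direction is given. Of the 4 genes listed in HFD-PC, Pigr had the lowest level per length.

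Fcgrt (ENSMUSG00000003420, chr7:45092990-45103851, minus strand), the heavy chain of the receptor for IgG, stood at 3.91 RPKM in Control-PC (3.11 to 4.87, from 81 reads) and was listed at 0 in HFD-PC. At the control level HFD-PC would have held 210 reads, against a floor of 53.6. An antisense gene, Gm45669, overlaps Fcgrt and is not among the genes of the tables; reads of the pair cannot be told apart where counting ignores strand, and the sources used here do not give the counting rule. B2m, the light chain that Fcgrt shares with class I antigen molecules, stood at 57.9 against 48.9 RPKM, a ratio of 1.18 (1.06 to 1.32) that turned to 0.779 when scaled by the total that omits the 20 most abundant genes, so no direction is given for it either. Fcamr and Fcer2a, receptors for IgA with IgM and for IgE, were listed at 0 in both libraries.

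Counted past 2-fold on the log2(RPKM + 1) scale, 3 of the 5 genes listed in either library were higher in HFD-PC and 1 was lower. Of the 16037 genes with a value in either library, 12.5% were past 2-fold on the higher side and 23.9% on the lower side. The choice of the 2 variable segments used this contrast, so nothing is read from the count. With HFD-PC scaled by a total that omits the 20 most abundant genes, the median difference of all these genes moved from -0.13 to -0.63 and the split from 2000 higher and 3833 lower to 1103 higher and 5641 lower, or 6.88% and 35.2% of them.

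Transport of IgA across a cell needs, besides the receptor, coats, small GTPases and motors that move vesicles from the base to the apex. All 25 genes of that list were listed in both libraries, 12 higher and 13 lower in HFD-PC, with a median difference of -0.06 beside -0.13 for all genes listed in either library. Over the settings tried the median lay between -0.57 and 0.05. Past 2-fold, 2 genes were higher and 1 lower as deposited. With HFD-PC scaled by a total that omits the 20 most abundant genes, 0 were higher and 3 lower (Ap1m2, Exoc6 and Rab25). Among the 16037 genes listed in either library, 12.5% were higher and 23.9% lower as deposited, and 6.88% and 35.2% with the other total. Rab17, a GTPase of polarized epithelial cells that acts in transcytosis, stood at 7.74 against 2.21 RPKM, a ratio of 3.49 (2.57 to 4.95). Rab11a, the GTPase of recycling endosomes, stood at 42.1 against 18.4 RPKM, a ratio of 2.29. With the other total neither Rab17 nor Rab11a was past 2-fold on the log2(RPKM + 1) scale. In the other direction Ap1m2, the epithelial subunit of the AP-1 adaptor that sorts cargo to the basolateral side, stood at 26.0 against 64.9 RPKM, 2.50 times lower in HFD-PC. The 4 most abundant of the list by the mean of both libraries were Rab3d (73.3 against 72.3 RPKM), a GTPase of secretory granules, Rab5c of early endosomes (59.2 against 70.1 RPKM), Rab5b (47.8 against 52.1 RPKM) and Vamp8, a fusion protein of endosomes and granules (60.4 against 38.8 RPKM). Rab25 and Myo5b, an epithelial partner of this recycling route and its motor, stood at 26.6 against 42.6 and 12.7 against 10.3 RPKM; they were named after their values were seen. These genes also serve membrane traffic of the acid-secreting surface.

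The Pigr gene is induced by interferon, tumor necrosis factor and interleukin 17 signals and depends on USF factors. Of 16 genes of these signals and factors, 12 were lower and 4 higher in HFD-PC, with a median of -0.23 that lay between -0.76 and -0.12 over those settings. As deposited, none was over 2-fold higher and 1 was over 2-fold lower, against 16 of 16 lower and 5 of them over 2-fold with the other total. The share past 2-fold on the lower side among the 16037 genes was 23.9% as deposited and 35.2% with the other total, so the 5 of 16 lie near the background. The 1 over 2-fold lower as deposited was Relb, an NF-kappaB subunit, at 2.21 RPKM in Control-PC and listed at 0 in HFD-PC. Usf1 had the lowest ratio among the genes listed in both, at 6.42 against 12.5 RPKM, 1.95 times lower in HFD-PC. The most abundant by the mean of both libraries were the receptor genes Tnfrsf1a (30.1 against 25.8 RPKM) and Ifngr1 (15.2 against 26.6 RPKM) and the factor genes Stat6 (22.9 against 26.2 RPKM) and Rela (17.8 against 19.5 RPKM).

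Another list held signals that draw plasma cells to mucosae and keep them alive. Of its 12 genes 6 were listed in either library, beside 16037 of all 38087 genes. Of the 6, 3 were higher and 3 lower, with a median of -0.41 that lay between -1.59 and 0.81 over the settings tried. Ccl28, an epithelial chemokine for IgA plasma cells, stood at 5.07 against 2.62 RPKM, a ratio of 1.93 (1.59 to 2.36). Aldh1a1, which makes retinoic acid, was the most abundant at 160 against 86.7 RPKM, a ratio of 1.84, and Aldh1a2 stood at 1.63 against 1.26 RPKM. Cxcl12 (4.51 RPKM), Tgfb1 (1.16 RPKM) and Tnfsf13, which encodes the survival factor APRIL (1.06 RPKM), were listed in Control-PC and at 0 in HFD-PC. Among all genes, 2606 were listed in Control-PC alone and 992 in HFD-PC alone. Ccl25, Cxcl13, Tnfsf13b, Tslp, Il6 and Madcam1 were listed at 0 in both.

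**Figure D3:**
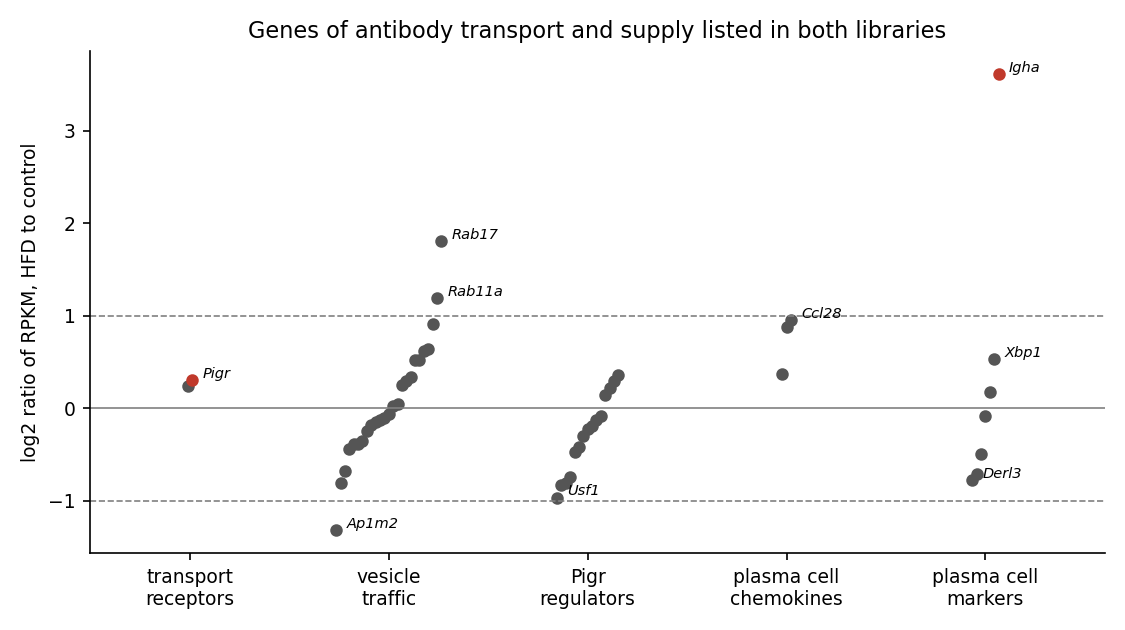
log2 ratio of RPKM, HFD to control, of each gene listed in both libraries (points), by list; red points are Pigr and Igha, and dashed lines mark 2-fold. Igha, at 12.3 times the control, is the highest point, while Pigr, at 1.24 times, lies near the solid line at 0.

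Markers of the cells that make antibodies were set beside these genes. Of 13 B cell markers in the tables, 12 were listed at 0 in both libraries, among them Ms4a1 and Cd79a; the signalling adaptor gene Blnk stood at 1.35 against 1.08 RPKM. The plasma cell genes Mzb1, Tnfrsf17, Prdm1, Irf4, Pou2af1, Cd38 and Slamf7 were listed at 0 in both, as was Ptprc, the antigen CD45 of leukocytes. Of 16 plasma cell markers 7 were listed, and their summed level was 342 RPKM in HFD-PC and 301 in Control-PC. Of these 7, 3 were higher and 4 lower in HFD-PC with a median of -0.08, and 1 was higher and 6 lower with a median of -0.67 with the total that omits the 20 most abundant genes. Igha apart, these are genes that epithelial or other secretory cells can also express: Xbp1 (147 against 102 RPKM), Sdc1 (79.9 against 70.4 RPKM), Txndc5 (57.4 against 60.7 RPKM), Ell2 (22.4 against 36.7 RPKM), Fkbp11 (11.4 against 16.0 RPKM) and Derl3 (8.32 against 14.2 RPKM). As deposited, Igha was the single plasma cell marker over 2-fold apart; with the total that omits the 20 most abundant genes Ell2, Fkbp11 and Derl3 were over 2-fold lower too. The part of plasma cells or their free RNA in the immunoglobulin values was not tested.

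The labelled cell type was present in both libraries. Of 17 parietal cell markers in the list 16 were found by their symbol, and all 16 were listed in each library. They were led by the proton pump genes Atp4b (5639 against 4375 RPKM) and Atp4a (4997 against 4324 RPKM). Their median difference was 0.53, with 14 of 16 higher, and -0.07 with HFD-PC scaled by the total that omits the 20 most abundant genes. The leading marker of each neighbouring gland cell type stood above the pump genes in both libraries, and the values here were not assigned to a cell type. Pgc of chief cells stood at 45624 against 102292 RPKM, Gkn1 of pit cells at 21736 against 5021 RPKM and Tff2 of neck cells at 7355 against 8350 RPKM. The other markers of these lists lay at or below the 8091 RPKM in HFD-PC and 3406 RPKM in Control-PC of Gkn2, a pit cell marker, and 1 neck cell marker was at 0 in both libraries and 1 chief cell marker in HFD-PC. The chief cell markers had a median of -1.16 with 4 of 5 lower, the pit cell markers one of 0.39 with 4 of 5 higher that turned to -0.21 with 2 of 5 higher under that other total, and the neck cell markers one of -0.18 with 3 of 3 lower. Their part in the receptor values was not tested.

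**Figure D4:**
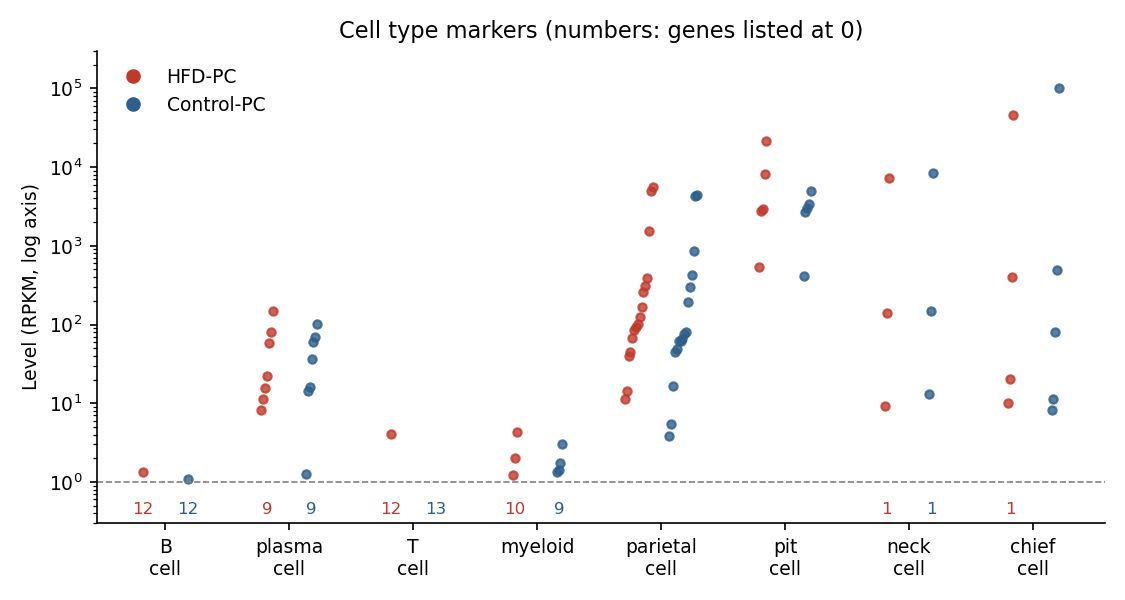
Level in RPKM, on a log axis, of each marker gene listed in HFD-PC (red) and Control-PC (blue), by cell type; numbers below the dashed floor of 1 RPKM count the markers listed at 0. B cell markers are at 0 for 12 of 13 genes in each library, whereas all 16 parietal cell markers found by their symbol are listed in both.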

How the data were processed

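RNA of sorted parietal cells was measured in 2 libraries, 1 per diet. RNA was depleted of ribosomal RNA and made into Ion Torrent libraries, per the labels' protocols. Of tools and builds, the submitters' processing notes list bedtools 2.25.0 and mm10; the sources used here do not give the aligner, counting rule or annotation version. The deposited values, in a column headed RPKM, were found to be log2 of RPKM with genes at or below 1 RPKM listed as 0. After conversion to RPKM, low values of single-exon genes, up to 12 reads, were compared with whole multiples of 1 read. In HFD-PC 49.7% and in Control-PC 36.0% fell within 0.005 of one, against 1% by chance for a step fixed beforehand. The step was fitted to these same values, so the share by chance is higher and was not computed. Symbols, exon lengths and transcripts came from GENCODE M21; 36308 identifiers matched and 1779 did not.

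Reads behind a value are the product of RPKM, exon length and depth. Over annotated genes they summed to 111% of the depth in HFD-PC and 114% in Control-PC, so single read estimates are approximate. Ratio intervals are exact conditional binomial and level intervals exact Poisson (SciPy 1.17.1); identities come from local alignments (Biopython 1.88). The functions were tested on simulated data. The planned ratio of Fcgrt could not be formed, since it was listed at 0 in HFD-PC. No count model was run, since the files hold no counts.

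The members and the 16 gene lists were chosen with earlier results of these data known. Named were the 10 genes, the 3 nearest segments of each variable segment and, of each list, all genes of short lists or the most abundant ones and those of highest and lowest ratio, plus defining cell markers; genes listed at 0 were named as well. A few genes that this rule names are not reported here. Of identifiers with the same symbol, the most abundant was taken. Other scalings, pseudocounts, minimums and entries for 0 were tried.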

Additional observations from a re-analysis of the deposited data

How the results depend on the processing

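No paired analysis was possible because each diet has 1 library, and no library could be left out. With HFD-PC scaled by a total that omits the 20 most abundant genes, the ratio of Pigr turned to 0.813 and that of Igha moved to 8.09; 1103 genes were over 2-fold higher, and of the 96 listed genes of the lists 4 were over 2-fold higher and 22 lower, against 12 and 12 as deposited. The ratio of Igha was 7.34 with a pseudocount of 1 RPKM. At a minimum of 5 RPKM Control-PC listed 1 of the 10 genes and 0 immunoglobulin genes. There, 1092 of all genes were over 2-fold higher and 1393 lower, and of the list genes 9 were higher and 5 lower. Fewer genes enter at this minimum. The difference of Fcgrt was -2.30 on the log2(RPKM + 1) scale, -1.97 with a 0 entered as 1 RPKM and -5.33 with a pseudocount of 0.1 RPKM; scaling HFD-PC cannot move an entry of 0, and at the minimum of 5 RPKM Fcgrt was not counted. The counts of listed genes did not move at a minimum of 10 estimated reads, and the identities were equal over the coding sequence alone. The lower limit of depth is the floor: levels at or below 1 RPKM are unknown.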

Other observations

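Genes of other antibody-related steps and of other leukocytes were looked up too. Of all 38087 genes, 16037 were listed in either library, the share to set beside the counts below. Of 14 Fc receptors and Fc-binding proteins of leukocytes 12 were listed at 0 in both libraries, among them Fcgr1, Fcgr2b and Fcer1g. Trim21, a cytosolic antibody receptor that many cells express, stood at 4.07 RPKM in HFD-PC and 2.24 in Control-PC, a ratio of 1.82 (1.42 to 2.33), and Fcgr3 at 1.27 and 1.29 RPKM. The recombination genes Rag1, Rag2 and Dntt were listed at 0 in both libraries, whereas Ung, a uracil glycosylase that also acts in DNA repair of dividing cells, stood at 1.65 against 7.02 RPKM, 4.24 times lower in HFD-PC.

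Of 13 T cell markers, Cd3g was listed in HFD-PC, at 4.03 RPKM, without its partners Cd3d and Cd3e or any other marker of the list, and none was listed in Control-PC. Of 13 myeloid markers 5 were listed in either library: Cd68 stood at 4.26 against 1.42 RPKM, Ly6c2 at 1.23 against 1.75 RPKM, Csf1r at 2.03 RPKM in HFD-PC alone, and Cd14 at 3.03 and Lyz2 at 1.35 RPKM in Control-PC alone. Their summed level was 7.52 RPKM in HFD-PC and 7.55 in Control-PC.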
